A study of Mus musculus with 4 samples.

Results

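The genes of the interferon response and of antigen presentation were followed in mouse dental follicle and dental papilla. The members were taken by gene symbol, and the choice was made with earlier results of these data known. They were the class I, class II and related genes named H2- and the families Ifi, Ifit, Ifitm, Isg, Oas, Mx, Gbp, Irf and Stat. Tap1, Tap2, Psmb8, Psmb9, B2m and Cd74 were members too. The members came to 92 of the 16039 genes measured and were read by 137 probes, with 1 probe for 60 members and several for the other 32. A normalised signal of 100 or more in at least 1 of 4 signal columns was reached by 75 members, of 14238 genes in all, and the counts and medians given here are over those 75. The other 17 stayed below 100 in all 4 columns, namely Gbp4, Gbp5, Gbp8, H2-M9, H2-Oa, H2-Ob, Ifi203, Ifi205, Ifi209, Ifit1bl1, Ifit1bl2, Irf7, Oas1b, Oas1c, Oas2, Oas3 and Oasl1. A member that reached 100 only in its brightest column was kept because of that column, so the counts describe the kept members and not the whole set.

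Total RNA of both tissues was labelled and hybridised to 2-colour Agilent arrays, which were deposited as 4 comparisons. DF stands for the dental follicle, a loose sac of connective tissue that encloses the tooth germ, and P for the dental papilla, the mesenchyme that the germ encloses. The groups are DF at E17, P at E17, DF at PN2 and P at PN2, with the stages as the labels write them, and each has 1 column of signal intensities and no replicate. Strain, genotype, treatment and the number of animals behind a sample are not given in the sources used here. One label reads DF PN3 where its title reads DF PN2, and text on a whole embryo and on embryonic stem cell culture stands beside the tissue names, so the titles were followed. Whether a difference exceeds the variation between animals could not be tested, and no p-value is given. Genes past 2-fold in either direction, with a log2 ratio beyond 1 or below -1, were counted as higher or lower, and that limit is the one the series' design text gives. Some members so counted had been kept through the columns where they are high. H2-Ab1, H2-M3 and Irf2 reached 100 in DF PN2 alone, Gbp7 and Tap2 in DF E17 alone and Ifi44l in P E17 alone. H2-Q8, Oas1d and Oas1f did so in the papilla alone, Gbp2 in the follicle alone and H2-Eb1 at PN2 alone. Signals are in arbitrary units after quantile normalisation over the 4 columns, and they compare columns for 1 gene, not genes with each other. The spread between probes of a gene (pooled SD over 6749 genes with several probes) was, on the log2 scale, 0.58 for DF over P at E17 and 0.77 at PN2, 0.47 for PN2 over E17 in the follicle and 0.65 in the papilla.

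Interferons are secreted proteins that signal through cell surface receptors, Janus kinases and STAT factors to genes whose promoters carry an interferon-stimulated response element (ISRE) or a gamma-activated site (GAS). The genes they raise include antiviral effectors, which block the entry, translation or replication of viruses, and the machinery of antigen presentation. Class I molecules, made of a heavy chain and beta-2-microglobulin, display peptides from the cytosol on nearly all nucleated cells. Class II molecules display peptides from endosomes and are found mainly on macrophages, dendritic cells and B cells, and the dental follicle is known to hold macrophages and the precursors of osteoclasts.

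Promoter stretches of members that the results turn on are shown first, because they carry the elements through which these genes are known to respond. They come from RefSeq windows of 250 bases before to 50 bases after a gene's start on GRCm38.p6, run 5′ to 3′ on the gene's strand and end before that start. Capitals mark the ISRE core, searched as GAAANNGAAA or, on the other strand, TTTCNNTTTC, where N is any base. Gbp2 lies at chr3:142620584-142620633, plus strand, Isg15 at chr4:156200855-156200916, minus strand, Oas1a at chr5:120907526-120907565, minus strand, Stat2 at chr10:128270256-128270305, plus strand, B2m at chr2:122147528-122147577, plus strand, Ifi207 at chr1:173741821-173741870, minus strand, and Ifi211 at chr1:173913054-173913103, minus strand.
Gbp2: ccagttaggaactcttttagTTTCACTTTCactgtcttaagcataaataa
Isg15: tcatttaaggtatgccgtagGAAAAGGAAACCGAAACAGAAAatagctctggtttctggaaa
Oas1a: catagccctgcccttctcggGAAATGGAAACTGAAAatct
Stat2: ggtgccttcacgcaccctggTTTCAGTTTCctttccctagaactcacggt
B2m: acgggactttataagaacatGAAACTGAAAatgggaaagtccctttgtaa
Ifi207: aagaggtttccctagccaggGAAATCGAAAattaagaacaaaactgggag
Ifi211: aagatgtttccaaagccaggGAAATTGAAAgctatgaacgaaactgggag
The core begins 59 bases before the start of Gbp2, 222 before that of Stat2 and 139 before that of B2m. Isg15 holds 3 overlapping cores and Oas1a holds 2.

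The promoters of class I and class II genes are known to share a Y box, the inverted CCAAT box of their common enhancer. Capitals in the next stretches mark ATTGG or, on the other strand, CCAAT. These were searched anywhere in the window, so a match need not be that Y box. H2-Aa lies at chr17:34287847-34287891, minus strand, H2-Eb1 at chr17:34305788-34305856, plus strand, H2-DMb2 at chr17:34145139-34145183, plus strand, H2-D1 at chr17:35262998-35263065, plus strand, B2m at chr2:122147614-122147658, plus strand, and Psmb9 at chr17:34187331-34187358, minus strand.
H2-Aa: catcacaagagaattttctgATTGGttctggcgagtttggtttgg
H2-Eb1: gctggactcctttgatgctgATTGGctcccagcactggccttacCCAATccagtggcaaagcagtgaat
H2-DMb2: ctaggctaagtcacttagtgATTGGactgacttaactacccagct
H2-D1: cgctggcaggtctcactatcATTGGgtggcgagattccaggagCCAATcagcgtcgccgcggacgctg
B2m: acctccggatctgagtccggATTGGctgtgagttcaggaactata
Psmb9: tgcaccgcgcgcagccgctgATTGGaaa
H2-Aa carries its match 48 bases before its start, B2m at 53 and H2-DMb2 at 90. The match of Psmb9 lies 8 bases before its start and also falls in the window of Tap1, which is read the other way on the plus strand.

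RefSeq windows were matched for 69 of the 92 members. The ISRE core was in the window of 21 of the 69 members (30.4%), and in that of 3.99% of 27025 genes. The gamma-activated site, TTCNNNGAA on either strand, was in 14 of 69 (20.3%), against 9.55% of all genes. ATTGG or CCAAT was in 38 of 69 (55.1%), against 41.1% of all genes. Among members that had a window, it was in 7 of the 8 class II members and 12 of the 14 class I members. No other part of the class I and class II enhancer was searched. Matches that overlap each other were counted, a match to one motif can overlap a match to another, and members of one family share sequence, so these shares are descriptions.

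The tissue labels were set beside markers of each tissue, from lists chosen with earlier results of these data known, so the counts describe the columns and are no independent check. Of 9 measured follicle markers, 7 were higher in DF at each stage, and of 10 papilla markers, 9 were lower in DF at E17 and 8 at PN2. Of 13 macrophage and pan-leukocyte markers, 11 were higher in the follicle at E17 and 10 at PN2, and 8 of 8 osteoclast markers were higher at both stages. The lymphoid and dendritic cell markers were not: at E17, 0 were higher and 1 of 5 B cell, 2 of 4 T and natural killer cell and 2 of 4 dendritic cell markers were lower, with medians of -0.40, -0.74 and -0.51. At PN2, 3 of the B cell markers were higher and 1 lower, 1 T and natural killer cell marker was higher, and 1 dendritic cell marker was lower, with medians of 2.11, -0.07 and 0.18. Of 7 endothelial markers, 2 were higher in the follicle at E17 and 5 at PN2 (medians 0.51 and 1.23), and of 5 epithelial markers, 4 were higher at E17 and 1 higher and 1 lower at PN2 (medians 1.42 and -0.64). The summed signal of the 13 macrophage and pan-leukocyte markers was 21287 at E17 and 30127 at PN2 in the follicle and 3011 and 5467 in the papilla. The sum of 4 neutrophil markers was 376, 67854, 357 and 607 in the same order, so that nearly all of it was in DF PN2. In bulk tissue, fewer cells of a type and less RNA per cell cannot be told apart, and the part of these cell types in the results that follow was not tested.

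More members were higher than lower in the follicle at both stages. At E17, 17 of the 75 members were higher in DF past 2-fold and 6 lower, where 10.5% and 10.1% of all genes were. At PN2, 18 were higher and 7 lower, where 12.8% and 13.4% of all genes were. The median log2 ratio of DF over P was 0.24 at E17 and 0.26 at PN2 for the members, and -0.07 at both stages for all genes. The choice of scale bears on the E17 split: without normalisation, where the median of all genes moved to -0.36, 9 members were higher and 22 lower, and the members' median stood at -0.21, still 0.15 above that of all genes. At PN2 the unnormalised split was 27 to 11.

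Between stages the members that moved past 2-fold were mostly higher at PN2. In the follicle, 11 of 75 were higher at PN2 and 1 lower, where 3.83% and 4.06% of all genes were. In the papilla, 11 were higher and 2 lower, where 6.55% and 5.09% of all genes were. The median log2 ratio of PN2 over E17 was 0.27 in the follicle and 0.19 in the papilla, against -0.01 and -0.02 for all genes. Without normalisation the papilla split turned to 2 higher and 21 lower, where the median of all genes stood at -0.82, and the members' median stayed 0.16 above it. The follicle split became 7 to 6 with an all-gene median of -0.24. The difference between tissues grew by more than 2-fold towards the follicle from E17 to PN2 for 6 members and towards the papilla for 9, where 8.12% and 9.14% of all genes moved so far. Of the 75 members, 42 (56.0%) passed 2-fold in at least 1 of the 4 tissue and stage comparisons, against 39.6% of all genes. The change of the tissue difference is not counted there. DF PN2 was the brightest column for 33 members (44.0%), against 23.2% of all genes, and P E17 the dimmest for 32 (42.7%), against 23.2%.

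**Figure D1:**
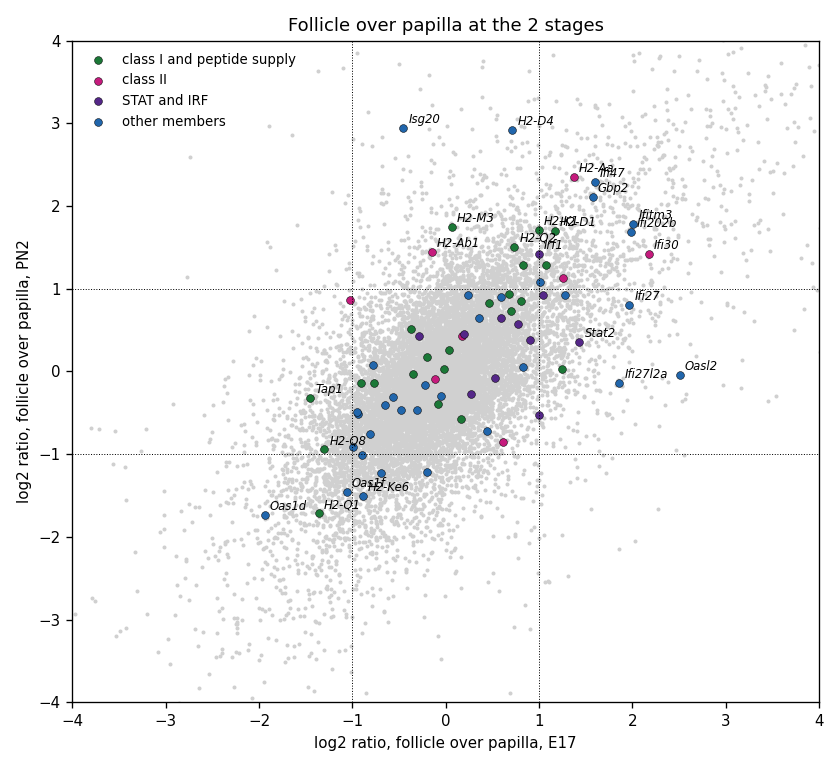
The log2 ratio of follicle over papilla at E17 (horizontal axis) is plotted against that at PN2 (vertical axis) for each kept member (coloured by group) and for all 14238 kept genes (grey), 127 of which fall outside the axes. Dotted lines mark 2-fold; 10 members lie past them to the upper right, 3 to the lower left, and Isg20 and H2-D4 stand high at PN2 alone.

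The 10 members higher in DF at both stages (13.3%, against 6.05% of all genes) were Cd74, H2-Aa and Ifi30 of the class II pathway, the class I heavy chains H2-D1 and H2-M2, the membrane proteins Ifitm3 and Ifitm7, the GTPases Gbp2 and Ifi47, and Ifi202b of the Ifi200 family. The 3 lower at both stages (4.0%, against 5.62%) were H2-Q1, Oas1d and Oas1f. Without normalisation, the E17 ratios of Cd74, Gbp2, H2-Aa, H2-M2 and Ifitm7 fell under 2-fold, which leaves 5 of the 10, and with the deposited ratios that of Oas1f did, at -0.99. No member was past 2-fold in opposite directions at the 2 stages.

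Several class II genes were brighter in the follicle, and several rose between the stages. Cd74, the invariant chain that guides class II molecules to endosomes, had normalised signals of 244 at E17 and 1005 at PN2 in the follicle and 102 and 459 in the papilla. Each follicle column was above the papilla column of its stage, and each PN2 column above the E17 column of its tissue. Its log2 ratio of DF over P was 1.26 at E17 and 1.13 at PN2, and that of PN2 over E17 was 2.04 in the follicle (4.12-fold) and 2.17 in the papilla (4.50-fold). H2-Aa, the alpha chain of the I-A molecule, read 178 at E17 and 762 at PN2 in the follicle and 68.6 and 149 in the papilla. It was likewise highest in DF PN2 and lowest in P E17, with a DF over P log2 ratio of 1.38 at E17 and 2.35 at PN2 (5.11-fold). Its 2 probes gave 2.32 and 2.39 at PN2. The E17 ratios of both genes fell short of 2-fold without normalisation, at 0.75 for Cd74 and 0.77 for H2-Aa.

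H2-Ab1, the beta chain that pairs with H2-Aa, departed from it at E17. Its signals were 54.6 at E17 and 187 at PN2 in the follicle and 60.5 and 68.9 in the papilla, so that only DF PN2 stood out. The log2 ratio of DF over P was -0.15 at E17 and 1.44 at PN2, although its 4 probes ran between -0.08 and 2.22 at PN2. H2-Eb1, the beta chain of the I-E molecule, read 54.1 at E17 and 113 at PN2 in the follicle and 58.5 and 120.3 in the papilla. The tissues differed little at either stage, and both rose, by a log2 ratio of 1.07 in the follicle and 1.04 in the papilla. Its E17 signals are close to the low end of the arrays, where the 5th percentile of all normalised signals was 37.9.

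The genes that prepare, load and edit class II peptides were divided. Ifi30, a lysosomal thiol reductase that unfolds antigens, was strongly follicular at both stages, with signals of 6099 at E17 and 4173 at PN2 in the follicle and 1350.5 and 1558 in the papilla. Its log2 ratio of DF over P was 2.18 (4.52-fold) at E17 and 1.42 at PN2, and neither tissue changed past 2-fold. H2-DMb2, a beta chain of the peptide exchange factor H2-M, read 78.8 at E17 and 178 at PN2 in the follicle and 159.9 and 97.9 in the papilla, higher in the papilla at E17 and in the follicle at PN2. Its log2 ratio of DF over P moved from -1.02 to 0.87. H2-DMa, the alpha chain of that factor, went the other way: its signals were 369 at E17 and 252 at PN2 in the follicle and 241 and 454 in the papilla, and the difference between tissues changed by -1.47, or by -0.88 in the smallest of the alternative settings. H2-DMb1 passed 2-fold in no comparison as the mean of its 2 probes, which disagreed. The brighter probe gave 1.02 for DF over P at E17, and 1.04 and 1.27 for PN2 over E17 in the follicle and papilla. The dimmer probe gave -0.68, 0.66 and -0.08 in the same order. Of the 8 class II members kept, 3 were higher in DF at E17 and 1 lower, 4 were higher at PN2 and 0 lower, 5 rose in the follicle and 3 in the papilla, with 0 lower in either. The shares higher were 37.5%, 50%, 62.5% and 37.5%, against 10.5%, 12.8%, 3.83% and 6.55% of all genes, over no more than 8 genes. Their median log2 ratio was 0.40 at E17, 1.00 at PN2, 1.12 for the follicle between stages and 0.76 for the papilla, the last of which turned to -0.35 without normalisation, 0.47 above the median of all genes there.

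Other genes of the class II pathway, outside the symbol rule, had a median DF over P log2 ratio on the papilla side, of -0.34 at E17 and -0.44 at PN2, with 2 and 3 of the 7 kept genes above 0. Ctss, the protease cathepsin S that trims the invariant chain, had signals of 508 at E17 and 1215 at PN2 in the follicle and 94.6 and 245 in the papilla. It was higher in the follicle at both stages, by 2.43 and 2.31 on the log2 scale, and rose in both tissues. Lgmn, another endosomal protease, was higher in DF at E17 by 1.82. The transcription factors of class II promoters, Rfx5, Rfxank and Rfxap, had DF over P log2 ratios between -0.36 and -0.05 at E17 and passed 2-fold in none of the comparisons. Of the 7 genes, 2 were higher in DF at E17 and 1 lower, and 1 was higher at PN2. The shares were 28.6%, 14.3% and 14.3%, against 10.5%, 10.1% and 12.8% of all genes.

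**Figure D2:**
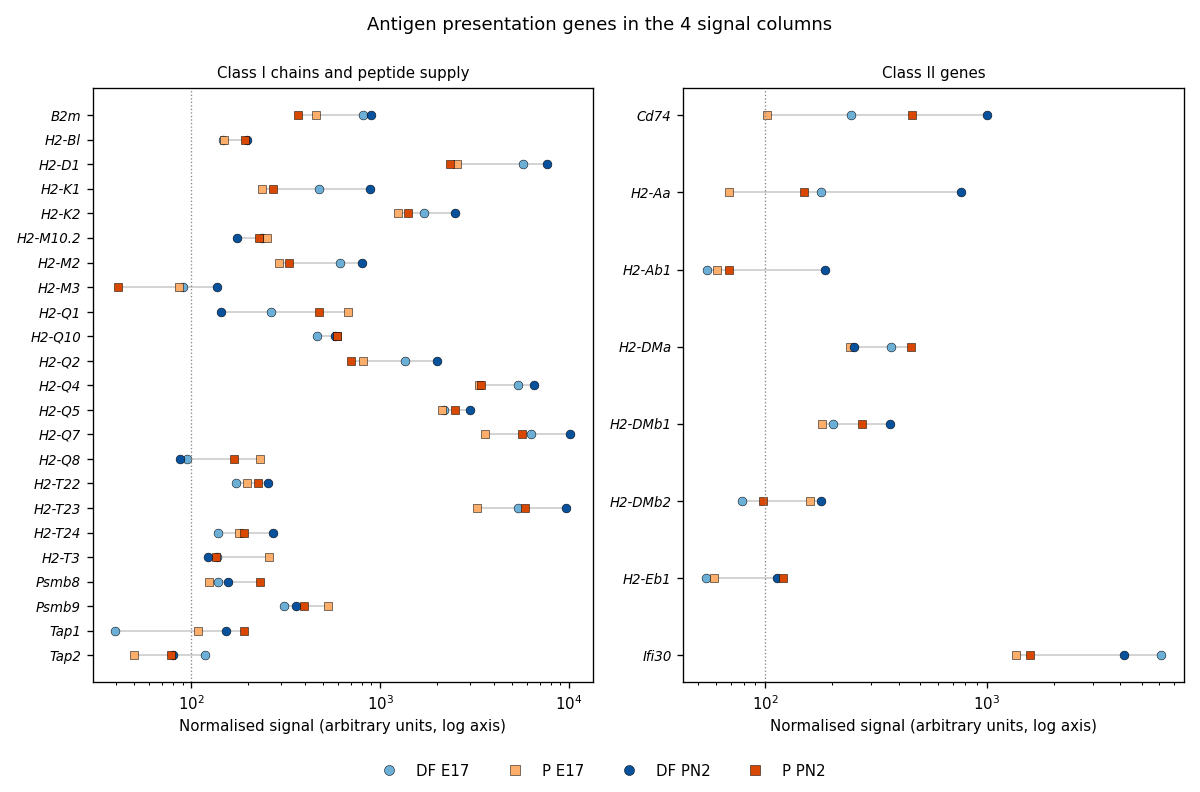
Normalised signal (log axis, arbitrary units) of each kept class I and peptide supply gene (left) and class II gene (right) in the 4 signal columns, with circles for follicle, squares for papilla, light colours for E17 and dark for PN2. The dotted line marks 100, the level a gene had to reach in 1 column; Cd74 and H2-Aa run from P E17 at the left to DF PN2 at the right, and the follicle columns of H2-D1 lie to the right of both papilla columns.

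The classical class I heavy chains H2-D1 and H2-K1 and their light chain B2m were higher in the follicle at PN2, and H2-D1 at E17 as well. H2-D1, a classical heavy chain, had signals of 5736 at E17 and 7635 at PN2 in the follicle and 2552 and 2355 in the papilla. Both follicle columns were above both papilla columns, with log2 ratios of 1.17 at E17 and 1.70 at PN2 (3.24-fold), and its 2 probes gave 1.58 and 1.82 at PN2. H2-K1, the other classical heavy chain, read 475 at E17 and 885 at PN2 in the follicle and 238 and 271 in the papilla. At E17 its log2 ratio was 1.00, just short of 2-fold, and at PN2 it was 1.71. Its 4 probes ran between -0.39 and 2.08 at E17, and the brightest probe alone gave 0.92 at PN2. B2m, the light chain of all class I molecules, read 813 at E17 and 896 at PN2 in the follicle and 459 and 367 in the papilla. The follicle columns were again the higher ones, with a log2 ratio of 0.83 at E17 and 1.29 at PN2, although its 3 probes spread between -0.30 and 1.59 at E17 and between 0.45 and 2.25 at PN2.

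The nonclassical class I genes were divided. H2-Q2 was higher in DF at PN2 by 1.51, and H2-M2 at both stages, by 1.08 and 1.28. H2-M3, which presents peptides that begin with formylmethionine, read 89.9 at E17 and 137 at PN2 in the follicle and 86.0 and 40.7 in the papilla. Its PN2 ratio of 1.75 rested on 2 probes that gave 0.42 and 3.07. H2-Q1 was the reverse, with signals of 265 at E17 and 144 at PN2 in the follicle and 678 and 474 in the papilla. Both papilla columns were above both follicle columns, and the log2 ratio of DF over P was -1.36 at E17 and -1.71 at PN2. H2-Q8 was lower in DF at E17, with a log2 ratio of -1.30. H2-T23 and H2-Q7 were higher in DF by less than 2-fold at both stages, with log2 ratios of 0.71 and 0.73 for H2-T23 and of 0.81 and 0.85 for H2-Q7. Class I heavy chains are near-identical in much of their sequence, so a probe may also read its neighbours in the family, and the values of single heavy chains are uncertain.

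Of the 19 class I members kept, 2 were higher and 2 lower in DF at E17, and 6 were higher and 1 lower at PN2. The E17 shares, 10.5% each, were those of all genes (10.5% and 10.1%), and the PN2 shares were 31.6% and 5.26%, against 12.8% and 13.4%. Their median log2 ratio was 0.06 at E17, or -0.20 without normalisation, and 0.73 at PN2. Most lists of cell type markers moved the same way from E17 to PN2. Their medians were 0.51 and 1.23 for endothelial, -0.40 and 2.11 for B cell and 0.27 and 6.67 for neutrophil markers. They were -0.74 and -0.07 for T and natural killer cell, -0.51 and 0.18 for dendritic cell and 2.05 and 2.48 for macrophage and pan-leukocyte markers. Those of epithelial markers (1.42 and -0.64) and osteoclast markers (3.45 and 3.39) fell. The part of these cell types in the class I values was not tested. Within the follicle none of the 19 passed 2-fold between stages, with a median of 0.43, and in the papilla 1 fell, with a median of 0.04. H2-D4, named for the same region, had signals of 436 at E17 and 2438 at PN2 in the follicle and 266 and 321 in the papilla. DF PN2 alone was high, at 7.59 times P PN2 and 5.60 times DF E17. H2-Ke6, which the symbol rule also takes in, encodes a steroid dehydrogenase and not a presentation gene, and was lower in DF at PN2, with a log2 ratio of -1.50.

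Among the genes that supply peptides to class I molecules, Tap1 and Tap2 differed between tissues at E17 in opposite directions. Tap1 and Tap2 encode both subunits of the transporter that moves peptides into the endoplasmic reticulum. Tap1 read 39.7 at E17 and 152 at PN2 in the follicle and 108 and 189 in the papilla, with DF E17 the lowest column. Its log2 ratio of DF over P was -1.45 at E17 and -0.32 at PN2, and it rose in the follicle by 1.94 (3.83-fold). Tap2 ran the other way at E17, with signals of 118 at E17 and 79.8 at PN2 in the follicle and 49.5 and 78.4 in the papilla and a log2 ratio of 1.25. That ratio fell under 2-fold in 3 of 7 alternative settings, down to 0.53. Psmb8 and Psmb9, subunits of the immunoproteasome, passed 2-fold in no comparison, with signals of 139 at E17 and 156 at PN2 in the follicle and 124 and 233 in the papilla for Psmb8. The 4 members had a median DF over P log2 ratio of -0.30 at E17 and -0.23 at PN2. Of 9 further loading genes, 3 were higher in DF at each stage (33.3%, against 10.5% and 12.8% of all genes) and 0 lower, with medians of 0.22 and -0.06. Psmb10, the third inducible subunit of the immunoproteasome, was among them at both stages, by 1.05 and 1.14, and Tapbp, which holds class I molecules at the transporter, at E17 by 1.34. Nlrc5, the transactivator of class I promoters, had log2 ratios of -0.52 and -0.81.

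The antiviral effectors did not move as a block. Of 17 kept members of the Ifit, Isg, Mx, Oas and Ifi27 families, 3 were higher and 2 lower in DF at E17 and 1 higher and 3 lower at PN2. The shares were 17.6% and 11.8% at E17, against 10.5% and 10.1% of all genes. At PN2 they were 5.88% and 17.6%, against 12.8% and 13.4%. The effectors' median log2 ratio was -0.57 at E17 and -0.41 at PN2. They are dim genes as a group, with a median signal of 132 in DF E17 and 171 in P E17. Dim genes leaned to the papilla over the whole array: the 1615 kept genes with a mean signal under 100 had a median of -0.33 at both stages, and the 3206 between 100 and 200 had -0.13 and -0.14. The part of this lean in the effector medians was not tested.

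Several effectors differed between tissues at 1 stage only. Isg20, an exonuclease that degrades viral RNA, had signals of 116 at E17 and 732 at PN2 in the follicle and 159 and 94.8 in the papilla. It was high in DF PN2 alone, at 7.72 times P PN2 and 6.28 times DF E17, and both of its probes showed this, with log2 ratios of 2.83 and 3.07 over P PN2. The difference between tissues moved from -0.45 to 2.95, a change of 3.40, the largest of the kept members. Oasl2, a protein related to the oligoadenylate synthetases, read 273 at E17 and 235 at PN2 in the follicle and 48.0 and 242 in the papilla. Here P E17 alone was low: the log2 ratio of DF over P was 2.51 at E17 (5.69-fold) and -0.04 at PN2, and the papilla rose by 2.33. Ifi27l2a had the same shape, with signals of 577 at E17 and 403 at PN2 in the follicle and 159 and 446 in the papilla. It was higher in DF at E17 by 1.86 and rose in the papilla by 1.49, with its 3 probes between 1.02 and 2.32 at E17. Ifi27 was also higher in DF at E17, by 1.97, and by 0.81 at PN2. These differences at 1 stage were not tested against those at the other beyond the change in ratio given.

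Isg15, Ifit3, Mx1, Mx2 and Oas1a were within 2-fold between tissues at both stages. Isg15, a ubiquitin-like protein joined to other proteins, read 252 at E17 and 304 at PN2 in the follicle and 484 and 434 in the papilla, with the papilla column above the follicle column at each stage by less than 2-fold. Ifit2, which binds viral RNA, was lower in DF at PN2, with a log2 ratio of -1.22, and Ifit3 had -0.31 at E17 and -0.47 at PN2. Mx1 and Mx2, GTPases that trap viral particles, had log2 ratios between -0.65 and -0.17 over both stages. Oas1a, an oligoadenylate synthetase that switches on RNA decay, read 197 at E17 and 183 at PN2 in the follicle and 381 and 256 in the papilla, which gave -0.95 at E17 and -0.49 at PN2. Oas1d was lower in DF at both stages, with signals of 35.8 at E17 and 41.4 at PN2 in the follicle and 137 and 139 in the papilla and log2 ratios of -1.94 and -1.74. Its follicle signals are near the 5th percentile of all signals, 37.9. Oas1f was lower too, with -1.06 and -1.46, and Oas1e had -0.99 and -0.92. The Oas1 genes are near-identical copies, so their probes may share targets. Ifi35 rose in the papilla by 1.62, and Ifi44l fell there, with a log2 ratio of -1.05. Each call was lost under 1 alternative setting.

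The Ifitm genes encode small membrane proteins that bar viral entry. Ifitm3 had signals of 5510.1 at E17 and 6962 at PN2 in the follicle and 1368 and 2030.5 in the papilla. Both follicle columns lay well above both papilla columns, at 4.03-fold at E17 and 3.43-fold at PN2. Ifitm7 was higher in DF by 1.01 and 1.08 on the log2 scale, and Ifitm2 by 0.59 and 0.90, short of 2-fold. Ifitm1 and Ifitm10 were lower in DF at PN2, with log2 ratios of -1.22 and -1.01. Ifitm5, a gene known from bone-forming cells, had -0.81 and -0.75 at the 2 stages, short of 2-fold. Of the 6 genes, 2 were higher at each stage and 2 lower at PN2, and none passed 2-fold between stages in either tissue. The share higher was 33.3% at each stage, against 10.5% and 12.8% of all genes. The share lower at PN2 was 33.3%, against 13.4%, over no more than 6 genes. The sequences of Ifitm1, Ifitm2 and Ifitm3 are close, and their probes may share targets.

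Of the 7 GTPases of the guanylate-binding family and Ifi47, which interferon gamma is known to raise, Gbp2 and Ifi47 were higher in the follicle at both stages, 2 did not pass 2-fold between tissues and 3 stayed below 100. Of the 4 genes kept, 50% were thus higher at each stage, against 10.5% and 12.8% of all genes. Gbp2, a guanylate-binding protein that attacks the vacuoles of pathogens, read 123 at E17 and 152 at PN2 in the follicle and 41.2 and 35.0 in the papilla. Both papilla columns were near the low end of the arrays, and the log2 ratio of DF over P was 1.58 at E17, or 0.85 without normalisation, and 2.11 at PN2. Gbp2 reached 100 in the follicle columns alone, so it was kept through them. Ifi47, an immunity-related GTPase, read 416 at E17 and 365 at PN2 in the follicle and 137 and 74.5 in the papilla, which gave 1.60 and 2.29 (4.90-fold). Gbp7, which like Gbp9 was within 2-fold between tissues, fell in the follicle, with a log2 ratio of -1.14. The median of the 4 genes kept was 1.01 at E17 and 0.91 at PN2, and it depended on the processing. It was -0.18 and -0.25 without normalisation, 0.62 and -0.69 with the brightest probe of each gene alone, and 0.51 and -0.29 with no filter, which takes in Gbp4, Gbp5 and Gbp8. Guanylate-binding genes are close copies of each other, and their probes may share targets.

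The Ifi200 family encodes sensors and regulators that bind nucleic acids, and 2 of its 4 kept members were higher in the follicle at E17 and 1 at PN2. The shares were 50% and 25%, against 10.5% and 12.8% of all genes. Ifi202b had signals of 1217 at E17 and 1250.5 at PN2 in the follicle and 307 and 389.6 in the papilla. The follicle columns were 3.97 and 3.21 times the papilla columns at E17 and PN2. Ifi207 was higher in DF at E17 by 1.28, which fell under 2-fold in 3 of 8 alternative settings, and Ifi211 rose in the follicle by 1.08. All 4 kept members lay above 0 in both tissue comparisons, with medians of 0.82 at E17 and 0.92 at PN2, and in both stage comparisons, with 0.83 in the follicle and 0.57 in the papilla, where the median was -0.19 without normalisation. With Ifi203, Ifi205 and Ifi209, which stayed below 100, the tissue medians fell to 0.24 at E17 and 0.64 at PN2. The promoter stretches of Ifi207 and Ifi211 printed above hold the ISRE core within nearly the same flanks, and the window of Ifi202b holds none.

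**Figure D3:**
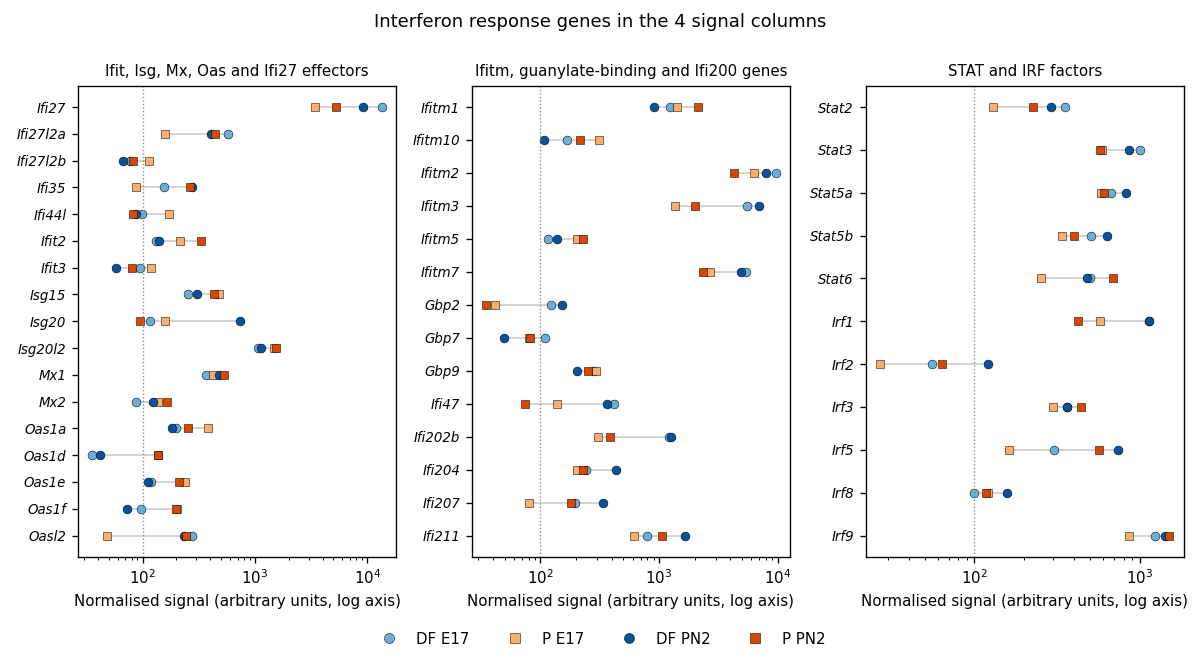
Normalised signal (log axis, arbitrary units) of each kept effector (left), Ifitm, guanylate-binding and Ifi200 gene (middle) and STAT or IRF factor (right), with the same marks as the plot of antigen presentation genes. Isg20 is set apart by DF PN2, Oasl2 and Ifi27l2a by P E17, and Ifitm3, Gbp2, Ifi47 and Ifi202b by both follicle columns.

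Of the 11 STAT and IRF members kept, Stat2 and Irf2 were higher in the follicle at E17 and Irf1 at PN2, and 0 were lower. Of all genes, 10.5% were higher and 10.1% lower at E17, and 12.8% and 13.4% at PN2. Stat2, which joins Irf9 in the factor that binds the ISRE, had signals of 351 at E17 and 289 at PN2 in the follicle and 129.8 and 225 in the papilla. P E17 was the lowest column, and the log2 ratio of DF over P was 1.43 at E17 and 0.36 at PN2. Irf9 itself read 1236 at E17 and 1423 at PN2 in the follicle and 856 and 1502 in the papilla, within 2-fold in every comparison. Stat6, which carries the signal of interleukin-4, read 501 at E17 and 479.8 at PN2 in the follicle and 251 and 689 in the papilla: its E17 ratio was 1.00, just short of 2-fold, and it rose in the papilla by 1.46. Stat3, Stat5a and Stat5b were higher in DF by 0.20 to 0.78 at E17 and by 0.45 to 0.65 at PN2, all short of 2-fold as means over probes. The 2 probes of Stat3 disagreed: the brighter gave 1.70 at both stages, and the dimmer gave -0.15 at E17 and -0.54 at PN2. Those of Stat5b ran between 0.14 and 0.95 at E17 and between 0.04 and 1.42 at PN2. The 5 STAT members had a median of 0.78 at E17 and 0.45 at PN2.

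Irf1, the factor that relays interferon gamma to class I genes, had signals of 1139 at E17 and 1129 at PN2 in the follicle and 571 and 423 in the papilla. Both follicle columns were above both papilla columns, with log2 ratios of 1.00 at E17 and 1.42 at PN2. Its 2 probes disagreed at PN2, with 0.32 for the brighter and 2.51 for the other. Irf5, a factor of macrophages and B cells, read 302 at E17 and 731 at PN2 in the follicle and 161 and 562 in the papilla: both tissues rose, by 1.28 in the follicle and 1.80 in the papilla. Irf2, which opposes Irf1, rose by 1.13 and 1.25 from signals of 55.4 in DF E17 and 26.9 in P E17, the second of which is under the 5th percentile of all signals. Its DF over P log2 ratio of 1.04 at E17 fell under 2-fold in 3 of 6 alternative settings. Irf8, a factor of myeloid and B cells, and Irf3, which is switched on by nucleic acid sensors, passed 2-fold in no comparison. The 2 probes of Irf8 disagreed. The brighter rose in the follicle by 1.57 and gave 1.14 for DF over P at PN2. The dimmer gave -0.22 and -0.29, from signals between 27.8 and 49.3, near the low end of the arrays. The 6 IRF members had a median DF over P log2 ratio of 0.72 at E17 and 0.40 at PN2.

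In both tissues at once, 5 members were higher at PN2 than at E17 (6.67%, against 0.639% of all genes): Cd74, H2-Aa, H2-Eb1, Irf2 and Irf5. No member was lower in both. H2-Eb1 reached 100 in the PN2 columns alone and Irf2 in DF PN2 alone, so both were kept through columns counted here as higher. Of these 5, Cd74 alone stayed past 2-fold in the papilla under all alternative settings, and Oasl2 was the only other papilla gain that did. In the follicle, the class II genes were the member list with the most genes past 2-fold between stages, 5 of 8 (62.5%, against 3.83% of all genes higher). In the papilla, 3 of the 8 rose (37.5%, against 6.55%), and of 17 effectors 3 rose and 1 fell (17.6% and 5.88%). Macrophage and pan-leukocyte markers moved as well. Of 13, 6 were higher at PN2 in the follicle and 3 in the papilla (46.2% and 23.1%), with medians of 0.81 and 0.76. Of those, Lyz2, a lysozyme of myeloid cells, rose by 2.39 in the follicle and 1.20 in the papilla, and Aif1, a macrophage protein, by 1.23 and 1.63. Of 5 kept B cell markers, 4 were higher at PN2 in the follicle and 1 in the papilla (80% and 20%, against 3.83% and 6.55% of all genes). Cd79a read 87.5 at E17 and 322 at PN2 in the follicle and 45.4 and 32.9 in the papilla. Vpreb1 read 75.7 at E17 and 708 at PN2 in the follicle and 100.2 and 117 in the papilla. The summed signal of the 5 went the other way between tissues. It was 813 at E17 and 2964 at PN2 in the follicle and 1761 and 3322 in the papilla. Of 7 dendritic cell markers, Itgax, Flt3 and Batf3 stayed below 100 in all columns, and the summed signal of the 4 kept ones was 531 to 956. The part of these cells in the class II values was not tested.

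**Figure D4:**
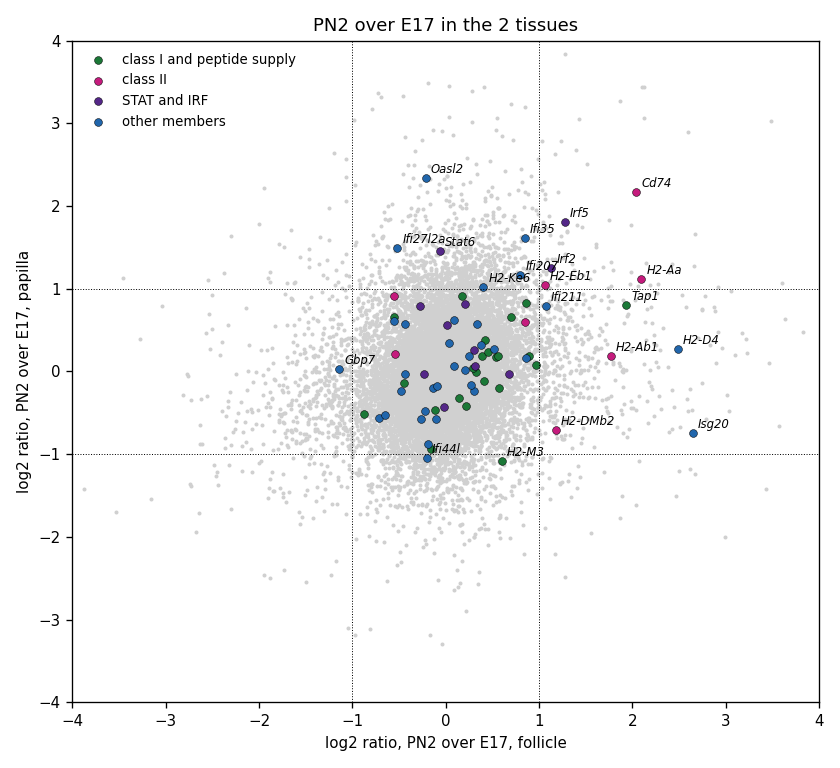
The log2 ratio of PN2 over E17 in the follicle (horizontal axis) is plotted against that in the papilla (vertical axis) for each kept member and all 14238 kept genes (grey), 29 of which fall outside the axes. Cd74, H2-Aa, H2-Eb1, Irf2 and Irf5 lie past 2-fold in both, Isg20 and H2-D4 in the follicle alone, and Oasl2 in the papilla alone.

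The genes that make and sense interferon were listed beside the members. Of 8 interferon genes, 7 were lower in DF at E17 and 6 at PN2, and none was higher. The shares lower were 87.5% and 75%, against 10.1% and 13.4% of all genes. Ifnz read 223 at E17 and 185 at PN2 in the follicle and 885 and 771 in the papilla, and Ifna5 156 at E17 and 67.0 at PN2 in the follicle and 548 and 408 in the papilla, with both papilla columns above both follicle columns for each. The list's median was -1.34 at E17 and -1.45 at PN2. Each gene has 1 probe, and the interferon alpha genes are close copies whose probes may share targets. The list's median signal was 152 at E17 and 115 at PN2 in the follicle and 396 and 282 in the papilla. Over all kept genes with a mean signal between 100 and 200, the median ratio was -0.13 at E17 and -0.14 at PN2. Between 200 and 400 it was -0.03 and -0.04. The part of signal level in the interferon ratios was not tested.

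Of 9 interferon receptors and Janus kinases, 2 were higher and 1 lower in DF at E17, and 2 were higher and 0 lower at PN2. The shares were 22.2% and 11.1% at E17, against 10.5% and 10.1% of all genes. At PN2 they were 22.2% and 0%, against 12.8% and 13.4%. Ifnar1 and Ifnar2, the chains of the type I receptor, had log2 ratios of DF over P between -0.63 and 0.56. Ifngr1, the ligand-binding chain for interferon gamma, was even at -0.02 and 0.12, while its partner Ifngr2 read 932 at E17 and 962 at PN2 in the follicle and 324 and 276 in the papilla. Both follicle columns of Ifngr2 were higher, by 1.53 and 1.80. Il10rb, shared by the interferon lambda and interleukin-10 receptors, was higher by 2.31 and 1.79. Ifnlr1 was the gene lower in DF at E17, with a log2 ratio of -1.31, and it rose in the follicle by 1.78. The Janus kinases Jak1, Jak2 and Tyk2 were within 2-fold between tissues. Of 8 feedback regulators, 3 were higher in DF at each stage (37.5%, against 10.5% and 12.8% of all genes). Socs1, which blocks Janus kinases, had signals of 1095 at E17 and 1043 at PN2 in the follicle and 526 and 173 in the papilla, with P PN2 the lowest column, and log2 ratios of 1.06 and 2.59. Socs3 had 1.49 and 1.37, Ptpn6, a phosphatase of blood cells, had 1.61 and 1.23, and Usp18, which removes Isg15, had -0.03 and -0.94.

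Among 10 sensors and adaptors of nucleic acids, 1 was higher and 1 lower in DF at each stage. These shares of 10% were near those of all genes, 10.5% and 10.1% at E17 and 12.8% and 13.4% at PN2. Ifih1, a sensor of long double-stranded RNA, was higher by 1.25 and 1.40, and Dhx58, its relative, rose in the follicle by 2.27. Cgas, the sensor of cytosolic DNA, had -0.90 at E17 and 0.59 at PN2, and Sting1, which it signals through, had -0.12 and 0.10. Of 27 further interferon-stimulated genes outside the symbol rule, 11 were higher and 1 lower in DF at E17, and 8 were higher and 0 lower at PN2, with medians of 0.51 and 0.58. The shares were 40.7% and 3.70% at E17, against 10.5% and 10.1% of all genes, and 29.6% and 0% at PN2, against 12.8% and 13.4%. Irgm2, an immunity-related GTPase, read 578 at E17 and 488 at PN2 in the follicle and 109 and 183 in the papilla. Rsad2, the antiviral enzyme viperin, read 209.7 at E17 and 929.8 at PN2 in the follicle and 147 and 191 in the papilla and resembled Isg20 in that DF PN2 alone was high. Its DF over P log2 ratio was 2.28 at PN2 and 0.51 at E17. Trim21 and Trim30a were higher in DF at both stages, by 1.32 and 2.10 for Trim21 and by 1.24 and 2.06 for Trim30a.

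**Figure D5:**
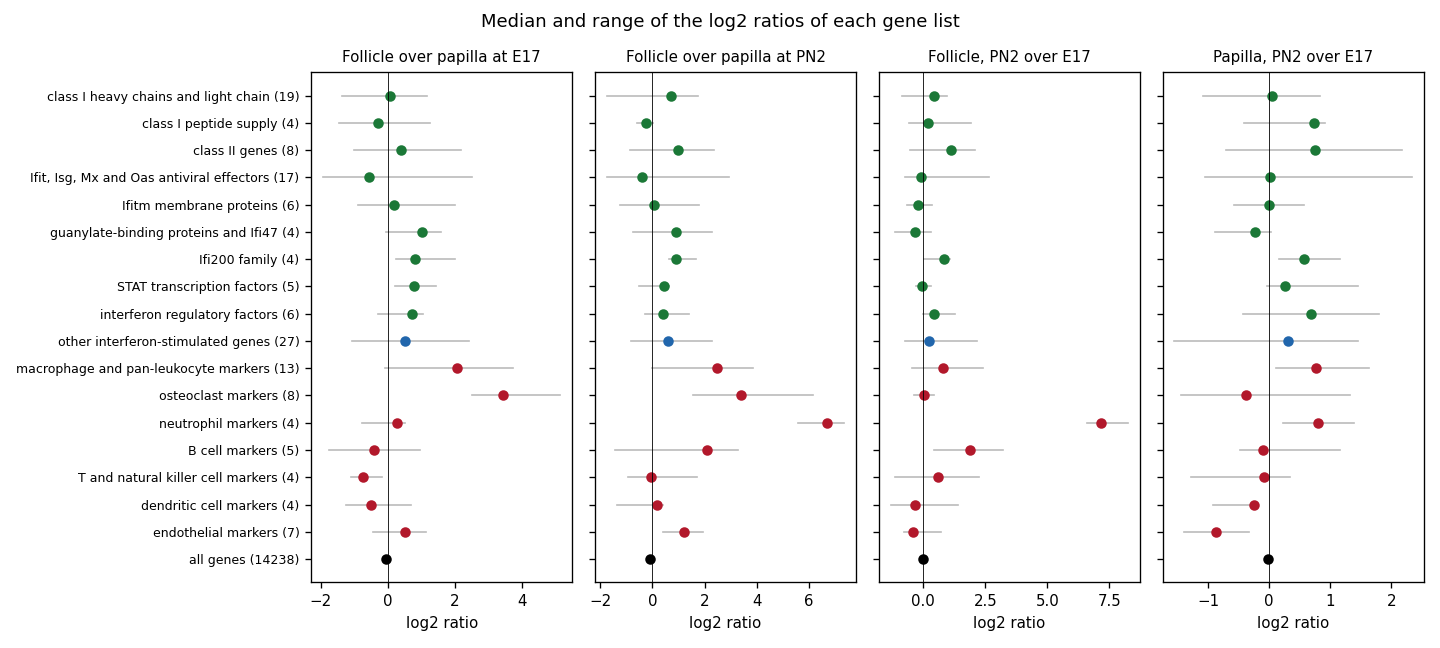
Median (points) and range (lines) of the log2 ratio over the kept genes of each list, with the number of genes in brackets, for the 4 comparisons. Green marks the members' lists, blue the further interferon-stimulated genes, red the markers of other cell types and black the median of all genes; class II genes reach 1.12 in the follicle between stages, and the 4 neutrophil markers stand far to the right at PN2 in the follicle.

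The promoter elements were set beside these ratios as a description, for the 56 kept members with a matched window. Of the 14 kept members with an ISRE core in the window, 5 were higher in DF at E17 and 0 lower, namely Gbp2, Ifi207, Ifitm3, Irf2 and Stat2, with a median of 0.65. Of the 42 without it, 8 were higher and 3 lower, and their median was 0.24. Of the 5 calls among members with the core, those of Ifitm3 and Stat2 alone held under all alternative settings. The cores of Ifitm3 lie after its start. At PN2, B2m, Gbp2 and Ifitm3 were the 3 higher among the 14 with the core, 0 of which were lower, and the median there was 0.69. Among the 42 without it, 12 passed 2-fold towards the follicle and 5 towards the papilla, around a median of 0.23. Over all genes, the shares past 2-fold in these directions were 10.5% and 10.1% at E17, and 12.8% and 13.4% at PN2. Isg15, with 3 overlapping cores before its start, and Oas1a, with 2, were both below even in DF at both stages. The class II chains with a printed ATTGG or CCAAT did not share a pattern. H2-Aa was higher in the follicle at both stages, H2-Eb1 at neither, and H2-DMb2 had log2 ratios of -1.02 and 0.87.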

How the data were processed

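The deposited tables give, per the file headers, the signal intensity of 30146 probes for both samples of an array, on a linear scale. Agilent Feature Extraction 8.5.1.1 is the software named in the submitters' processing notes, and no source used here says if background was removed. A deposited table of log10 ratios differed from the log10 ratios of these signals by a constant for each array in at least 99.99% of probes (tolerance 0.001). A tissue and stage has identical signals wherever it recurs, and in the file titled P PN2-P E17 the second column carries the header and the values of DF E17, so P E17 was taken from the file titled DF E17-P E17. The data are thus 4 columns from single hybridisations, whose number limits the precision. The 25962 probes with 1 symbol were matched; 4184 with none were left out. No per-sample column was left unmapped.

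Here the deposited signal intensity was quantile normalised as log2, without a pseudocount, and averaged over a gene's probes (Python 3.11.15, numpy 2.4.6, pandas 2.3.3). Of these steps, the normalisation and the ratios alone were tested on simulated data, with less noise than the spread between probes given above. Ratios are differences of log2 values; the change between stages is the DF over P log2 ratio at PN2 minus that at E17. The members and lists were chosen with earlier results of these data known. Members past 2-fold, the 3 highest and 3 lowest of each list, and all STAT, IRF, class II and peptide supply genes could be named. Settings tried were no normalisation, median centring, the deposited ratios as log2, other summaries of probes, other filters on dim genes and a floor under dim signals.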

Additional observations from a re-analysis of the deposited data

How the results depend on the processing

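Each count of members past 2-fold was recomputed under 8 alternative settings, and 60 of 80 counts stayed within 1.5 times the reported one. Without normalisation, the members higher and lower were 9 and 22 for DF over P at E17, 11 were lower at PN2, 7 and 6 were higher and lower between stages in the follicle, 2 and 21 in the papilla, and 20 and 3 for the change between stages. By construction that setting keeps the difference in overall brightness between columns: the median of all genes was -0.36, 0.17, -0.24 and -0.82 in the 4 comparisons, and the members' median stayed above it in each. Median centring gave 12 lower at PN2 and 3 lower in the follicle between stages. No filter gave 2 lower there. The stricter filter, which keeps fewer members (59), gave 3 lower at E17, 6 higher and 0 lower in the follicle, 0 lower in the papilla and 2 higher for the change between stages. The members lower in the papilla were 1 with the deposited ratios, 4 with the brightest probe alone and 1 with low signals raised. Apart from the filters and the missing normalisation, the cause was not tested. The median of the guanylate-binding list turned from 1.01 to -0.18 at E17 without normalisation, and at PN2 from 0.91 to -0.25 without it, -0.69 with the brightest probe alone and -0.29 with no filter. Of the members' ratios of the 4 main comparisons and the change between stages past 2-fold, those past it under all settings run were 9 of 17 higher and 5 of 6 lower at E17, 16 of 18 and 5 of 7 at PN2, 8 of 11 and 1 of 1 in the follicle, 2 of 11 and 0 of 2 in the papilla, and 6 of 6 and 2 of 9 for the change. Dim signals limit what can be said of 3 kept members, Gbp2, Irf2 and Oas1d, whose lowest signal lies under the 5th percentile of 37.9. No paired analysis was possible because each tissue and stage has 1 column.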
